A study of Mus musculus with 8 samples.

Results

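The transcripts described here encode 34 proteins of the lysosome: 9 cysteine proteases (Ctsb, Ctsc, Ctsf, Ctsh, Ctsk, Ctsl, Ctss, Ctsz and Lgmn), 3 aspartic and serine proteases (Ctsd, Ctsa and Tpp1), 7 glycosidases (Gaa, Gla, Glb1, Gusb, Hexa, Man2b1 and Neu1), 3 proteins of sphingolipid hydrolysis and its cofactors (Smpd1, Psap and Grn), 5 membrane proteins (Lamp1, Lamp2, Scarb2, Cd68 and Mcoln1), 5 subunits of the proton pump (Atp6v0c, Atp6v0d1, Atp6v1a, Atp6v1b2 and Atp6ap1) and the transcription factors Tfeb and Mitf. They were listed by name as known lysosomal genes. All 34 were found among the 42649 genes of the expression table, and all 34 had enough counts to be tested, as had 17367 genes in all. RNA was sequenced from tumour-associated macrophages, the cells positive for CD45, CD11b and F4/80 that were sorted from liver metastases of 8 C57BL/6 mice. For 6 weeks, 4 of the mice were fed a control diet in which fat gave 10% of the calories (CD) and the other 4 a fat-rich diet in which it gave 60% (HFD). All 8 then received MC38 mouse colon carcinoma cells by injection into the spleen, and the metastases were taken 19 days later. No genetic change is named for either group, and neither sex nor age is stated in the sources used here.

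The lysosome is the acid compartment in which a cell digests what it has engulfed and the parts of itself that it recycles. A proton pump, the vacuolar ATPase, acidifies it, soluble hydrolases cut proteins, sugars and lipids at that low pH, and heavily glycosylated membrane proteins line its wall. In macrophages, which clear dying cells and debris, these enzymes are made in large amounts, and their proteases also prepare antigens for display on MHC class II. TFEB and MITF, basic helix-loop-helix factors of the MiT/TFE family, bind E-box sequences near the start sites of many of these genes.

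Total counts ran from 37180157 to 55717378 per library. The F4/80 gene Adgre1 and 10 other macrophage markers had counts in every library, and their summed level was 36540 to 53770 CPM (counts scaled to a common library size, with TMM factors) in CD and 11230 to 101700 CPM in HFD. CD replicates 3 and 4 stood apart. Counts were found there for 34495 and 33449 genes, against 21571 to 24556 in the other 6 libraries. The 14 neutrophil markers, all with counts in every library, summed to 108100 and 109600 CPM in CD replicates 3 and 4, to 1889 and 1563 CPM in CD replicates 1 and 2, and to 482.4 to 7421 CPM in HFD. The 7 classical monocyte markers summed to 24370 and 20770 CPM in CD replicates 3 and 4 and to 906.7 to 4816 CPM in the other 6 libraries. The 10 Kupffer cell markers, those of the resident macrophages of the liver, summed to 118.9 to 235.8 CPM in CD and 286.6 to 603.7 CPM in HFD. The C1q genes, which such macrophages express strongly, were low in the libraries that stood apart. C1qa was at 289.6 and 271.3 CPM in CD replicates 3 and 4 and at 796.6 to 8858 CPM in the others. HFD replicate 1 had the largest scaling factor, 2.02 against 0.690 to 1.21 in the others, so its CPM values depend most on the scaling. In such bulk libraries, fewer cells of a type and less RNA per cell cannot be told apart.

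Lysosomal protease transcripts were among the most abundant of these macrophages. Levels of different genes are compared as FPKM, fragments scaled by transcript length and library size. Of the 34 genes, 7 lay in the top 1% of the 17367 tested genes by mean FPKM over the 8 libraries, 19 lay in the top 10%, and 3 lay below the median. The highest was Ctss, which encodes cathepsin S, the protease that trims the invariant chain of MHC class II in antigen-presenting cells. Its level was 3223 ± 924 FPKM in CD and 5263 ± 3589 FPKM in HFD (SD, n = 4 each, as in all that follow). Ctsz, a carboxypeptidase, followed at 865 ± 364 and 1122 ± 261 FPKM. After it came Cd68, the sialomucin used as a macrophage marker, at 562 ± 288 and 889 ± 170 FPKM. Lgmn, the asparaginyl endopeptidase that matures other cathepsins, was at 418.5 ± 260 and 1030 ± 301 FPKM. Ctss lay above Ctsz by more than the SD of either diet, while Ctsz and Cd68, and Cd68 and Lgmn, differed by less than the larger of their SDs in each diet. The proton pump lay below these genes, from 224 FPKM over all 8 libraries for the ring subunit Atp6v0c to 9.84 FPKM for the catalytic subunit Atp6v1a. It was not below all proteases, since Atp6v0c exceeded Ctsc (142 FPKM) and Atp6v1a exceeded Tpp1 (6.02 FPKM). The regulators were scarce, with 0.669 FPKM for Tfeb and 0.514 FPKM for Mitf. The lowest was Ctsf, cathepsin F, at 0.0821 ± 0.0248 FPKM in CD and 0.458 ± 0.128 FPKM in HFD.

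A promoter feature that played no part in the listing of the genes was found in a minority of them. RefSeq promoter windows of build GRCm38.p6, 250 bases before to 50 bases after a start site, were given for 31 of the 34 genes and not for Ctsb, Ctsh and Atp6v1b2. The hexamer CACGTG, the core of the E-box that MiT/TFE factors bind and its own reverse complement, was found in 12 of these 31 genes (38.7%). It was found in 2187 of 27025 genes of the table (8.09%), a gene being counted where any of its windows held it. By window the shares were 30.0% of the 40 windows of lysosomal genes and 7.15% of 32851. The longer TCACGTGA, which contains the hexamer, was found in 6 of 31 genes (19.4%) and in 1.12% of all genes. GTCACGTG on either strand, which overlaps both, was found in 8 of 31 genes (25.8%) and in 2.55% of all. The full consensus of the CLEAR element, a palindrome of 10 letters built around the hexamer, was found in 0 of the 31 and in 0.37% of all. Windows were also given for 91 other lysosomal genes, from the lists described further below. Of these, 19 held the hexamer (20.9%), a smaller share than among the 31. TCACGTGA was found in 8.79% of the 91, GTCACGTG in 13.2% and the full consensus in 2 (2.2%). Among the 31 genes, the hexamer was present in 5 classes. These included 3 of 7 cysteine proteases, 3 of 7 glycosidases and 2 of 4 proton pump genes with a window. The hexamer was found in 0 of the 3 sphingolipid genes and 0 of the 2 regulators. The stretches below show it with 25 bases on each side where the window allows, 5′ to 3′ on the strand of the gene, for the 7 genes in which at least 1 copy lies before both the RefSeq start and the start of the gene in the expression table. The capitals mark the hexamer.
Ctsf, chr19:4855061-4855116, plus strand: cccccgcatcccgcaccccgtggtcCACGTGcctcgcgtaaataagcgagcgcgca
Gaa, chr11:119267798-119267853, plus strand: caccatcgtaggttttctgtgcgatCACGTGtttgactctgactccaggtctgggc
Glb1, chr9:114401005-114401060, plus strand: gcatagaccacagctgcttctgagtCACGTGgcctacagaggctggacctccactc
Mcoln1, chr8:3500423-3500456, plus strand: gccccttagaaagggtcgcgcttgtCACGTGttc
Lamp1, chr8:13159075-13159160, plus strand: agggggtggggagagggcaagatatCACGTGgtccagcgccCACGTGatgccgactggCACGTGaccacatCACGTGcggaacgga
Ctsd, chr7:142388042-142388077, minus strand: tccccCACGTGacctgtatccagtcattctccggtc
Gla, chrX:134601169-134601255, minus strand: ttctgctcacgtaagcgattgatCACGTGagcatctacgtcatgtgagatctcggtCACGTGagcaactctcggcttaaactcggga

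**Figure D1:**
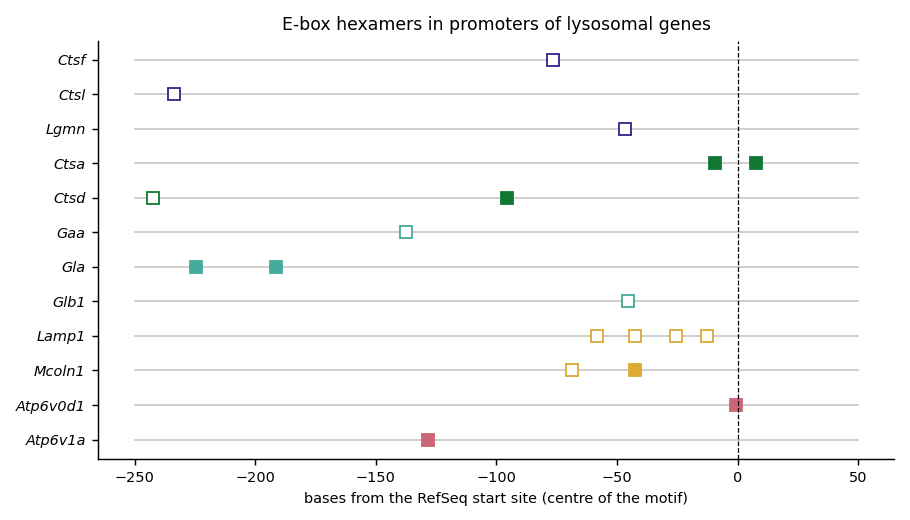
Position of the E-box hexamer in the 12 promoter windows that hold it, in bases from the RefSeq start site (dashed line). Filled squares are hexamers with T before and A after, colours are gene classes, and Lamp1 has 4 hexamers within 61 bases of its start.

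Lamp1 held the most copies, 4 in the last 61 bases before its start. In Ctsa, Ctsd, Gla and Mcoln1 the hexamer occurred at more than 1 position of the window. A match describes the letters of the window and is not a measured binding site.

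The comparison of HFD with CD asks whether diet was accompanied by a different lysosomal expression programme in the macrophages of metastases. Most hydrolases had a higher mean in HFD and most proton pump genes did not, and no gene of the 34 passed the test. The log2 fold change, HFD minus CD, was above 0 for 24 of 34 genes with a median of 0.48. Over all tested genes 50.8% were above 0 and the median was 0.01. It was above 0 for 19 of the 22 hydrolases and cofactors with a median of 0.75, and for 1 of the 5 proton pump genes with a median of -0.07. For the hydrolases and cofactors this became 16 of 22 with a median of 0.39 without HFD replicate 4, and 17 of 22 with a median of 0.46 without CD replicates 3 and 4. Scaled by library size only, the median of all genes was 0.42. Relative to that shift the hydrolases stood at 0.41 and the proton pump at -0.01, while the pump's own median was 0.41.

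**Figure D2:**
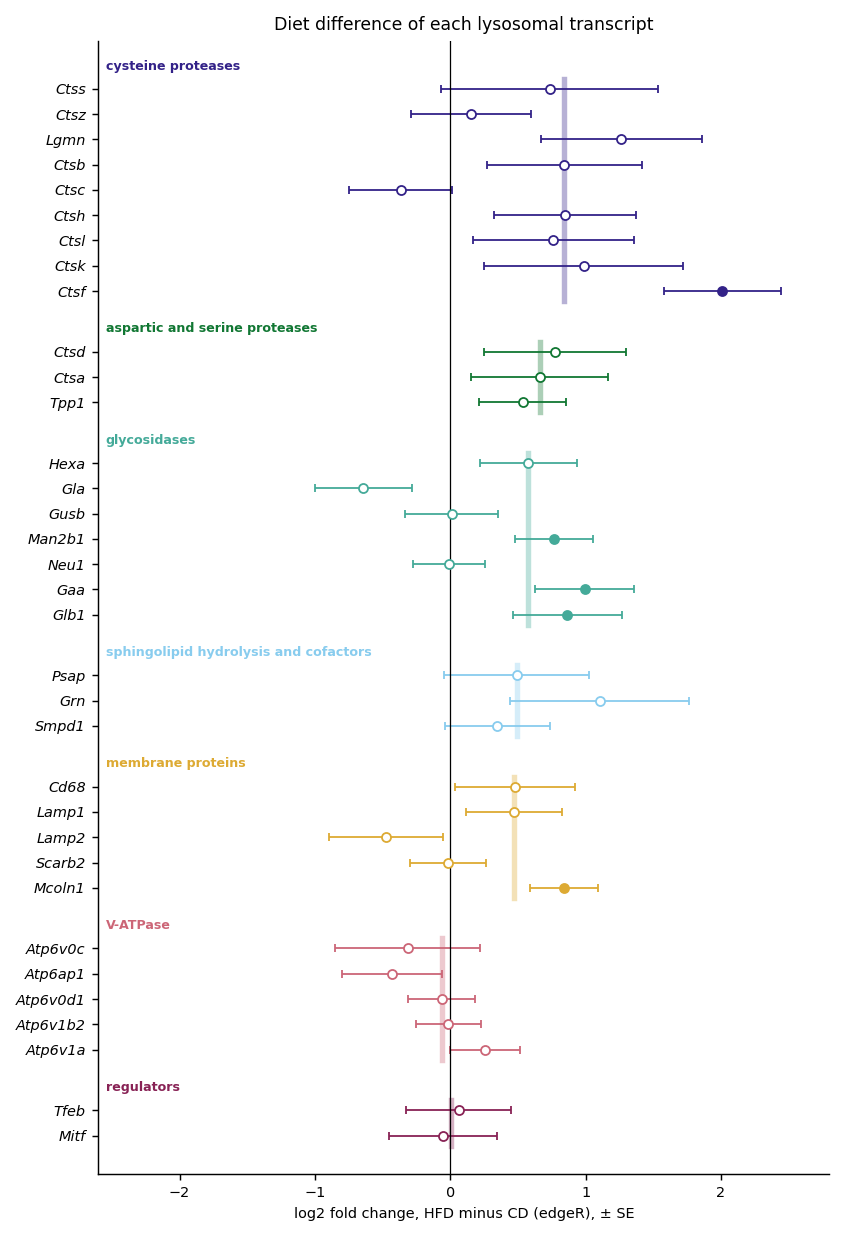
Log2 fold change, HFD minus CD, of the 34 genes with SE from edgeR over 4 CD and 4 HFD libraries. Filled points are the 5 genes whose 4 HFD values all exceed the 4 CD values in TMM-scaled CPM. Pale bars are class medians, from 0.84 for cysteine proteases to -0.07 for the proton pump (0.41 when scaled by library size only).

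In edgeR's quasi-likelihood test with Benjamini-Hochberg adjustment over all tested genes, 0 of the 34 genes were called at an adjusted p under 0.05. Over all genes 1 was called (0.00576%), and it was lower in HFD. At an unadjusted p under 0.05, 4 of the 34 were higher (Ctsf, Mcoln1, Gaa and Man2b1) and 0 lower, where 5.31% of all genes were higher and 7.56% lower. DESeq2 called 1 of the 34, Ctsf, and 3.68% of all genes. When edgeR was also given the numbered side of each library (replicates 1 and 2, or 3 and 4), 2 were called, Ctsf and Gaa, and 1.77% of all genes. Without a filter on low counts 1 was called, Ctsf, and 0.973% of all genes. In limma on log2(FPKM + 0.1), in edgeR with replicate numbers as a block and in edgeR with any 1 library left out, 0 of the 34 were called, beside 0.0288%, 0.0306% and at most 0.00537% of all genes. By TMM-scaled CPM, every HFD library lay above every CD library in 5 of the 34 genes. In 0 every HFD library lay below, beside 3.57% and 4.8% of tested genes. Those 5 were Ctsf, Mcoln1, Gaa, Man2b1 and Glb1. Which genes separated depended on the scale. As FPKM, Gaa and Glb1 overlapped between the diets. Every HFD value then lay above every CD value for Ctsb, Ctsd, Lgmn, Tpp1 and Lamp1, as for Ctsf, Mcoln1 and Man2b1. The share of all tested genes was not counted on that scale. Without CD replicates 3 and 4, edgeR called 0 of the 34, and 1 was higher at an unadjusted p under 0.05, where 2.92% of all genes were. The log2 fold change was then above 0 for 28 of 34 with a median of 0.27. In TMM-scaled CPM, all 4 HFD values exceeded both remaining CD values in 6 genes, beside 8.12% of tested genes.

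**Figure D3:**
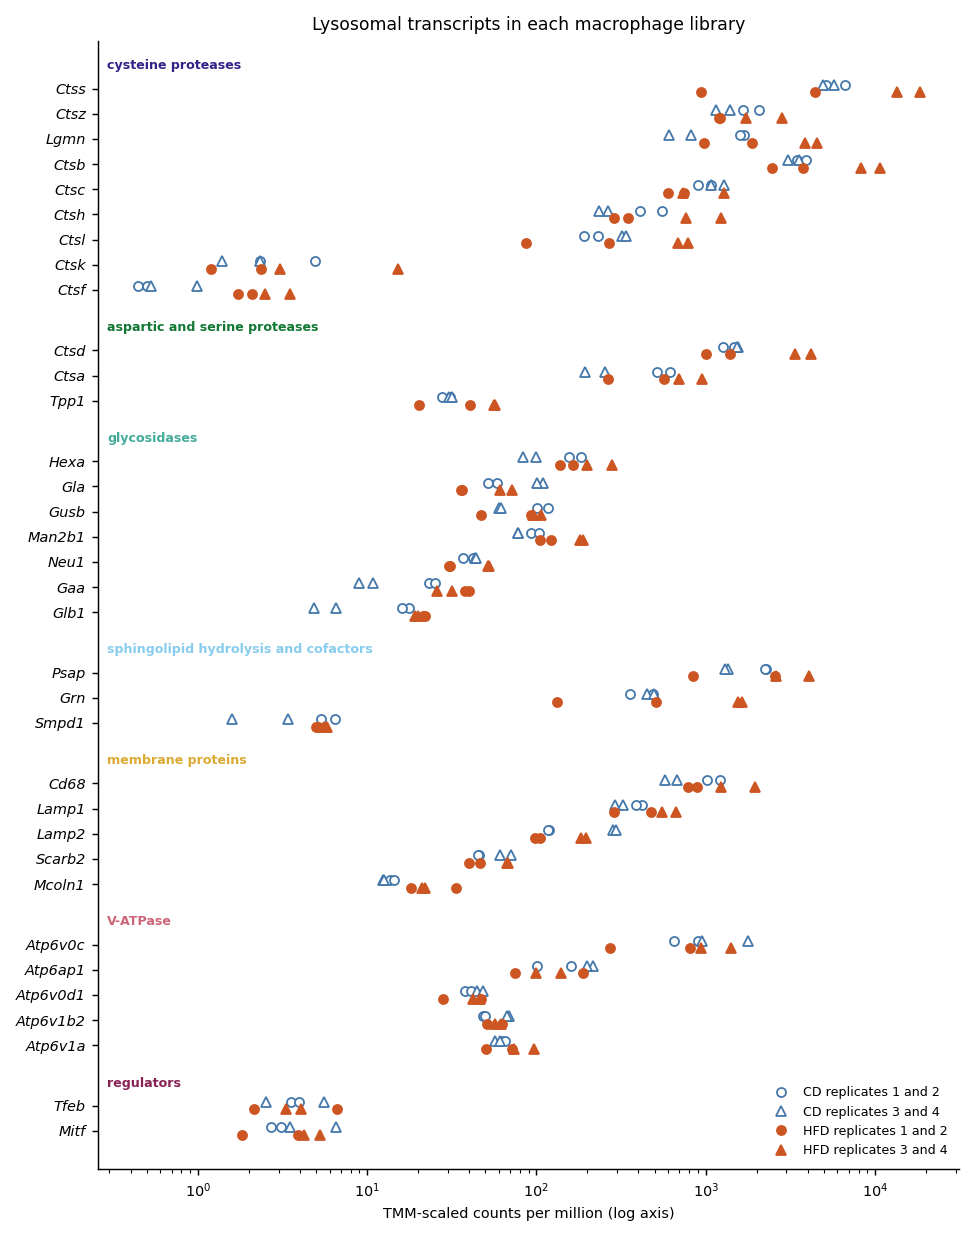
TMM-scaled CPM (log axis) of the 34 genes in each library, grouped by class. Open symbols are CD and filled symbols HFD, and circles are replicates 1 and 2 and triangles replicates 3 and 4: for Ctsb, Ctss, Ctsd and Grn the HFD triangles lie above all other symbols.

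Among the cysteine proteases, 8 of 9 had a log2 fold change above 0, with a median of 0.84. Together they took 0.843% to 1.70% of the counts of CD libraries and 1.35% to 2.86% of those of HFD libraries. Ctsf (ENSMUSG00000083282, chromosome 19, 4855130 to 4860918, GRCm38) encodes cathepsin F, a protease that can process the invariant chain in macrophages. Ctsf stood at 0.440, 0.498, 0.531 and 0.982 CPM in CD replicates 1 to 4 and at 1.73, 2.08, 3.51 and 2.49 CPM in HFD replicates 1 to 4. The diets did not overlap, and the highest CD value was that of a library that stood apart. Mean levels were 0.613 ± 0.249 and 2.454 ± 0.772 CPM, a log2 fold change of 2.01 ± 0.43 (SE). It had the largest change and the smallest p of the 34 (adjusted p = 0.219 in edgeR), and in DESeq2 it was called (adjusted p = 0.0023). These levels rest on 16 to 29 counts per CD library and 90 to 164 per HFD library. Without CD replicates 3 and 4 its log2 fold change was 2.37 ± 0.49 (adjusted p = 0.653 in edgeR).

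In TMM-scaled CPM the abundant cathepsins had a different pattern, with the HFD libraries split. Ctss (ENSMUSG00000038642, chromosome 3, 95526786 to 95556403) stood at 6670, 5166, 5718 and 4927 CPM in CD replicates 1 to 4. In HFD replicates 1 to 4 it stood at 935.5, 4415, 13550 and 18520 CPM. On that scale the CD libraries lay close together between the HFD libraries, 2 of which were below and 2 above all of them. As FPKM, the CD values of Ctss ran from 2353 to 4365. HFD replicate 1, at 1194 FPKM, lay below that range and replicate 2, at 3307 FPKM, within it. The log2 fold change of 0.73 ± 0.80 was smaller than its error. Ctsb, an endopeptidase and carboxypeptidase, averaged 3503 ± 356 CPM under CD and 6282 ± 3825 CPM under HFD, and Ctsl, an endopeptidase, at 270 ± 71.2 and 458 ± 335 CPM. As TMM-scaled CPM, HFD replicates 3 and 4 lay above every CD library in both. Replicate 2 lay within the CD range and replicate 1 lay below it. As FPKM, all 4 HFD values of Ctsb (708.6, 630.2, 1100 and 1098) lay above its CD range of 328.7 to 578.2. Ctsl in HFD replicate 1, at 23.1 FPKM, stayed below its CD range of 27.5 to 33.9. Over all 8 libraries Lgmn had the largest log2 fold change of the abundant proteases, 1.26 ± 0.60 (adjusted p = 0.406 in edgeR). It was at 1175 ± 542 and 2822 ± 1676 CPM. Without CD replicates 3 and 4 its log2 fold change was 0.77, while that of Ctsl was 1.11. Ctsh, an aminopeptidase, was at 366 ± 145 and 658.5 ± 436 CPM. Ctsk, the collagen-degrading cathepsin of osteoclasts, was scarce at 2.74 ± 1.52 and 5.47 ± 6.56 CPM, and its HFD mean rests on 15.2 CPM in replicate 4. Without that library its log2 fold change was -0.30, against 0.99 ± 0.73 with it. Ctsz differed little, at 1563 ± 387 and 1739 ± 754 CPM. Ctsc, the dipeptidyl peptidase that activates serine proteases of granules, was the only cysteine protease with a fold change below 0, at 1084 ± 158 and 841 ± 300 CPM.

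The aspartic and serine proteases were all 3 above 0, with a median of 0.66. Ctsd (ENSMUSG00000007891, chromosome 7, 142375911 to 142388038), cathepsin D, is the main aspartic protease of lysosomes. It stood at 1467, 1274, 1562 and 1523 CPM in CD replicates 1 to 4 and at 1011, 1385, 3353 and 4191 CPM in HFD replicates 1 to 4. In TMM-scaled CPM, replicates 3 and 4 of HFD again lay far above a narrow range of CD values, and HFD replicate 1 lay below it. The log2 fold change was 0.77 ± 0.53 (adjusted p = 0.540 in edgeR). As FPKM, HFD replicates 1 and 2 were at 745.1 and 599.4, above the CD range of 411.1 to 554.8. Ctsa, a serine carboxypeptidase that also protects NEU1 and beta-galactosidase in a complex, was at 394 ± 203 and 622 ± 287 CPM. Tpp1, tripeptidyl peptidase 1, was at 30.0 ± 1.71 and 43.4 ± 17.3 CPM. Without CD replicates 3 and 4 the log2 fold changes of Ctsd, Ctsa and Tpp1 were 0.85, 0.13 and 0.57. Over all 8 libraries they were 0.77, 0.66 and 0.53.

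Glycosidases held 3 of the 5 genes whose diets did not overlap in TMM-scaled CPM, and also the gene furthest below 0. Their median was 0.58, with 5 of 7 above 0. Gaa (ENSMUSG00000025579, chromosome 11, 119267887 to 119285454), the acid alpha-glucosidase that breaks down glycogen, stood at 23.2, 25.2, 8.89 and 10.8 CPM in CD replicates 1 to 4. In HFD replicates 1 to 4 it stood at 40.0, 38.0, 31.8 and 25.8 CPM. The lowest HFD value was just above the highest CD value, and the libraries that stood apart were the lowest. Its log2 fold change was 0.99 ± 0.37 (adjusted p = 0.314 in edgeR), and 0.48 ± 0.30 without CD replicates 3 and 4. As FPKM the diets overlapped, with HFD replicate 4 at 3.352 and CD replicates 1 and 2 at 4.311 and 4.925.

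Glb1 (ENSMUSG00000045594, chromosome 9, 114401076 to 114474898), acid beta-galactosidase, stood at 17.7, 16.1, 6.54 and 4.84 CPM in CD replicates 1 to 4. It stood at 21.25, 22.1, 19.9 and 19.2 CPM in HFD replicates 1 to 4. The HFD libraries were nearly level, and the CD libraries fell into a higher pair and a lower pair. The log2 fold change was 0.86 ± 0.40 (adjusted p = 0.399 in edgeR) and 0.28 ± 0.25 without CD replicates 3 and 4. As FPKM the diets overlapped, with HFD replicate 4 at 3.985 and CD replicates 1 and 2 at 5.232 and 5.007. Glb1 shares 6172 bases with Tmppe on the same strand (1.275 CPM on average), so some of its reads could belong to that gene.

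Man2b1 (ENSMUSG00000005142, chromosome 8, 85083270 to 85098282), the alpha-mannosidase of N-glycan breakdown, stood at 92.8, 103.4, 77.6 and 77.9 CPM in CD replicates 1 to 4. In HFD replicates 1 to 4 it stood at 122.6, 104.8, 188.2 and 181.7 CPM. The groups were separated by the small gap between the replicates numbered 2. Its log2 fold change was 0.76 ± 0.29 (adjusted p = 0.323 in edgeR) and 0.60 ± 0.36 without CD replicates 3 and 4. Hexa (ENSMUSG00000025232, chromosome 9, 59539540 to 59565109), the alpha subunit of beta-hexosaminidase, was the most abundant glycosidase. It stood at 184.4, 156.1, 99.5 and 83.6 CPM in CD replicates 1 to 4 and at 137.5, 164.3, 199.3 and 279.3 CPM in HFD replicates 1 to 4. The diets overlapped, and the log2 fold change was 0.58 ± 0.36 (adjusted p = 0.508 in edgeR) and 0.19 without CD replicates 3 and 4. Gla, alpha-galactosidase A, which removes galactose from globosides, was furthest below 0, at 80.1 ± 29.2 and 51.3 ± 18.05 CPM (log2 fold change -0.64 ± 0.36, adjusted p = 0.461 in edgeR). Without CD replicates 3 and 4, where Gla was highest, its log2 fold change was -0.11. Gusb, beta-glucuronidase, and Neu1, the sialidase, had nearly equal means in both diets, at 84.9 ± 28.5 and 85.4 ± 26.15 CPM and at 41.65 ± 3.23 and 41.3 ± 12.3 CPM.

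The sphingolipid group had 3 of 3 genes above 0, with a median of 0.49. Grn (ENSMUSG00000034708, chromosome 11, 102430315 to 102436809) encodes progranulin, which is cut into granulins in the lysosome. It stood at 486.6, 356.6, 448.8 and 495.7 CPM in CD replicates 1 to 4 and at 131.6, 507.5, 1558 and 1641 CPM in HFD replicates 1 to 4. The HFD values spanned the range on both sides of CD, with a log2 fold change of 1.103 ± 0.66 (adjusted p = 0.493 in edgeR). Psap (ENSMUSG00000004207, chromosome 10, 60277627 to 60302597), the precursor of the saposins that present lipids to hydrolases, was the most abundant of the group. It stood at 2265, 2246, 1362 and 1309 CPM in CD replicates 1 to 4 and at 838.5, 2575, 2602 and 4075 CPM in HFD replicates 1 to 4. In TMM-scaled CPM, HFD replicate 1 was the lowest library and replicates 2 to 4 exceeded all CD libraries, giving 0.49 ± 0.53. As FPKM, HFD replicate 1 was at 529.5, above CD replicates 3 and 4 at 307.2 and 309.3. Smpd1, acid sphingomyelinase, was scarce at 4.20 ± 2.16 and 5.37 ± 0.352 CPM. Without CD replicates 3 and 4 the log2 fold changes of Grn, Psap and Smpd1 were 1.17, 0.15 and -0.15.

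Of the membrane proteins, the calcium channel gene differed most and the structural glycoproteins did not move one way. Mcoln1 (ENSMUSG00000004567, chromosome 8, 3500457 to 3515232) encodes TRPML1, the cation channel through which lysosomes release calcium. It stood at 13.65, 14.42, 12.45 and 12.52 CPM in CD replicates 1 to 4 and at 33.59, 18.09, 21.19 and 21.92 CPM in HFD replicates 1 to 4. CD was narrow, libraries that stood apart included, and every HFD library lay above it. As FPKM the gap was small, with HFD replicate 4 at 1.799 and CD replicate 2 at 1.779. The log2 fold change was 0.84 ± 0.25 (adjusted p = 0.264 in edgeR). It was 0.75 ± 0.33 without CD replicates 3 and 4 and 0.63 without HFD replicate 1. Cd68 (ENSMUSG00000018774, chromosome 11, 69664213 to 69666153) stood at 1209, 1023, 678.4 and 575.5 CPM in CD replicates 1 to 4 and at 789.9, 882.7, 1227 and 1948 CPM in HFD replicates 1 to 4. The diets overlapped, with a log2 fold change of 0.48 ± 0.44 (adjusted p = 0.663 in edgeR), and of 0.11 without CD replicates 3 and 4. Lamp1 was at 356.5 ± 58.5 and 494 ± 159 CPM (0.47 ± 0.35), while its relative Lamp2 was at 204 ± 98.6 and 146 ± 51.6 CPM (-0.48 ± 0.42). Lamp2 was highest in CD replicates 3 and 4, at 283.4 and 294.5 CPM, and without them its fold change was 0.29. Scarb2, the receptor that carries glucocerebrosidase to lysosomes, was level at 55.85 ± 12.6 and 55.2 ± 14.35 CPM.

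The proton pump did not share the higher mean of the hydrolases. Its 5 genes had log2 fold changes from -0.43 to 0.25. Atp6v0c (ENSMUSG00000024121, chromosome 17, 24163866 to 24169702), the proteolipid of the membrane ring, stood at 895.0, 645.7, 954.4 and 1776 CPM in CD replicates 1 to 4 and at 272.4, 803.4, 943.0 and 1413 CPM in HFD replicates 1 to 4. The diets overlapped, with a log2 fold change of -0.32 ± 0.54. Atp6ap1 (ENSMUSG00000019087, chromosome X, 74297097 to 74304721), an accessory subunit, stood at 159.0, 100.2, 215.2 and 200.3 CPM in CD replicates 1 to 4 and at 74.3, 187.5, 99.4 and 139.2 CPM in HFD replicates 1 to 4. It was furthest from 0 of the pump genes, at -0.43 ± 0.37 (adjusted p = 0.632 in edgeR). Atp6v1a was at 61.4 ± 3.34 and 73.1 ± 18.95 CPM. Atp6v0d1 was at 42.9 ± 4.425 and 41.0 ± 8.84 CPM, and Atp6v1b2 at 58.6 ± 11.2 and 58.0 ± 5.42 CPM. As a share of all counts the 5 pump genes took 0.120% ± 0.0302 in CD and 0.120% ± 0.0149 in HFD, where the 22 hydrolases and cofactors took 1.67% ± 0.589 and 2.85% ± 0.942. The pump's median was -0.07 with TMM scaling, 0.41 with scaling by library size only and 0.14 without CD replicates 3 and 4, so its sign depended on the scaling and the libraries.

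**Figure D4:**
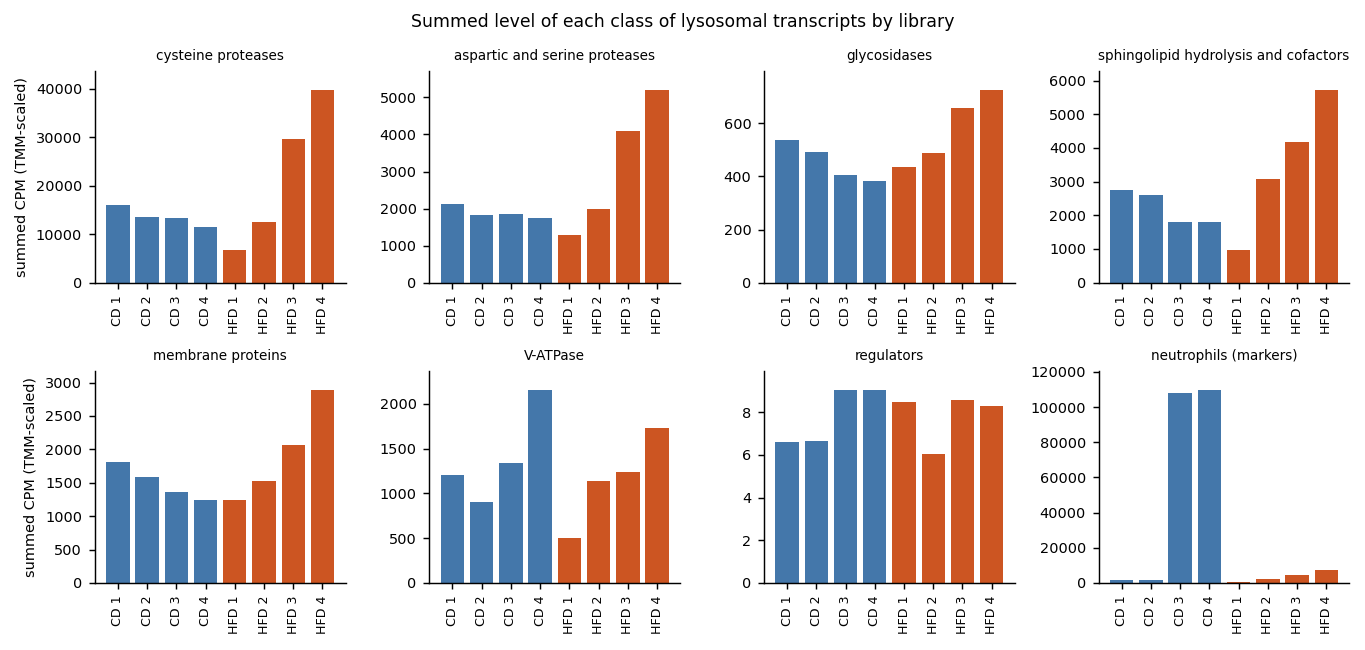
Summed TMM-scaled CPM of each class in each library, with a separate axis per class, and of the 14 neutrophil markers. Cysteine protease sums were 11400 to 16040 CPM in CD and 6712 to 39750 CPM in HFD, and neutrophil marker sums were 108100 and 109600 CPM in CD replicates 3 and 4 and at most 7421 CPM in the other libraries.

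Transcripts of the MiT/TFE factors Tfeb and Mitf differed by less than their error. Tfeb (ENSMUSG00000023990, chromosome 17, 47737030 to 47792419) stood at 3.54, 3.935, 5.54 and 2.51 CPM in CD replicates 1 to 4 and at 6.65, 2.16, 3.32 and 4.05 CPM in HFD replicates 1 to 4. Mitf (ENSMUSG00000035158, chromosome 6, 97807052 to 98018707) stood at 3.08, 2.70, 3.485 and 6.51 CPM in CD replicates 1 to 4 and at 1.82, 3.88, 5.245 and 4.24 CPM in HFD replicates 1 to 4. Both overlapped between diets, with log2 fold changes of 0.06 ± 0.39 and -0.05 ± 0.40. TFEB is controlled largely by its phosphorylation and its place in the cell, which transcript counts do not measure.

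The diet difference was then taken within replicate numbers 1 and 2 and within 3 and 4, because CD replicates 3 and 4 stood apart in an earlier account of these data. The division was made with that pattern known, so the counts that follow describe these libraries and are no independent support. The fits within replicate numbers were made with TMM factors only. In replicates 3 and 4, 17 of the 22 hydrolases and cofactors and 3 of the 5 membrane proteins were called higher in HFD, and in replicates 1 and 2 the log2 fold change was below 0 for 17 of the 22. Within 3 and 4, edgeR called 20 of the 34 genes, all higher, while over all genes 11.5% were called higher and 16.5% lower (28.0% in all). The 20 were 7 cysteine proteases, all 3 aspartic and serine proteases, 5 glycosidases, Psap, Grn, Lamp1, Cd68 and Mcoln1, and 0 were pump genes or regulators. At an unadjusted p under 0.05, 3 were lower there, Gla at -0.58, Lamp2 at -0.52 and Atp6ap1 at -0.72. Lgmn had the largest of these, 2.65 ± 0.35 (adjusted p = 0.0042 in edgeR), and Glb1 followed the same direction at 1.87 ± 0.24 (adjusted p = 0.0040). Within 1 and 2, edgeR called 0 of the 34 and 0 of all genes. There 2 of the 34 were higher (Ctsf and Gaa) and 1 lower (Gla) at an unadjusted p under 0.05, beside 6.61% of all genes higher and 5.48% lower.

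By class, the median log2 fold change of cysteine proteases was -0.55 within replicates 1 and 2 and 1.67 within 3 and 4. For aspartic and serine proteases it was -0.19 and 1.37, for glycosidases -0.17 and 1.34, for the sphingolipid group -0.40 and 1.41, and for membrane proteins -0.09 and 0.87. For the proton pump it was -0.06 and -0.12, and for the regulators 0.12 and -0.02. The log2 fold change was negative in 1 and 2 and positive in 3 and 4 for 21 of the 34 genes (24.2% of genes tested on both sides), and the reverse for 3, Atp6v1b2, Atp6ap1 and Tfeb (19.4%). These signs rest on TMM scaling. As FPKM, HFD replicates 1 and 2 lay above CD replicates 1 and 2 for Ctsb, Ctsd, Lgmn, Hexa and Lamp1. The same held for Scarb2, Atp6v1a and Mitf. For Ctss and Gusb the HFD values lay below, and the 21 genes were not recounted on that scale. Ctsf and Mcoln1 had nearly the same difference on both sides, 2.02 and 2.08 for Ctsf and 0.89 and 0.87 for Mcoln1, and Gaa was positive on both, at 0.69 and 1.63.

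**Figure D5:**
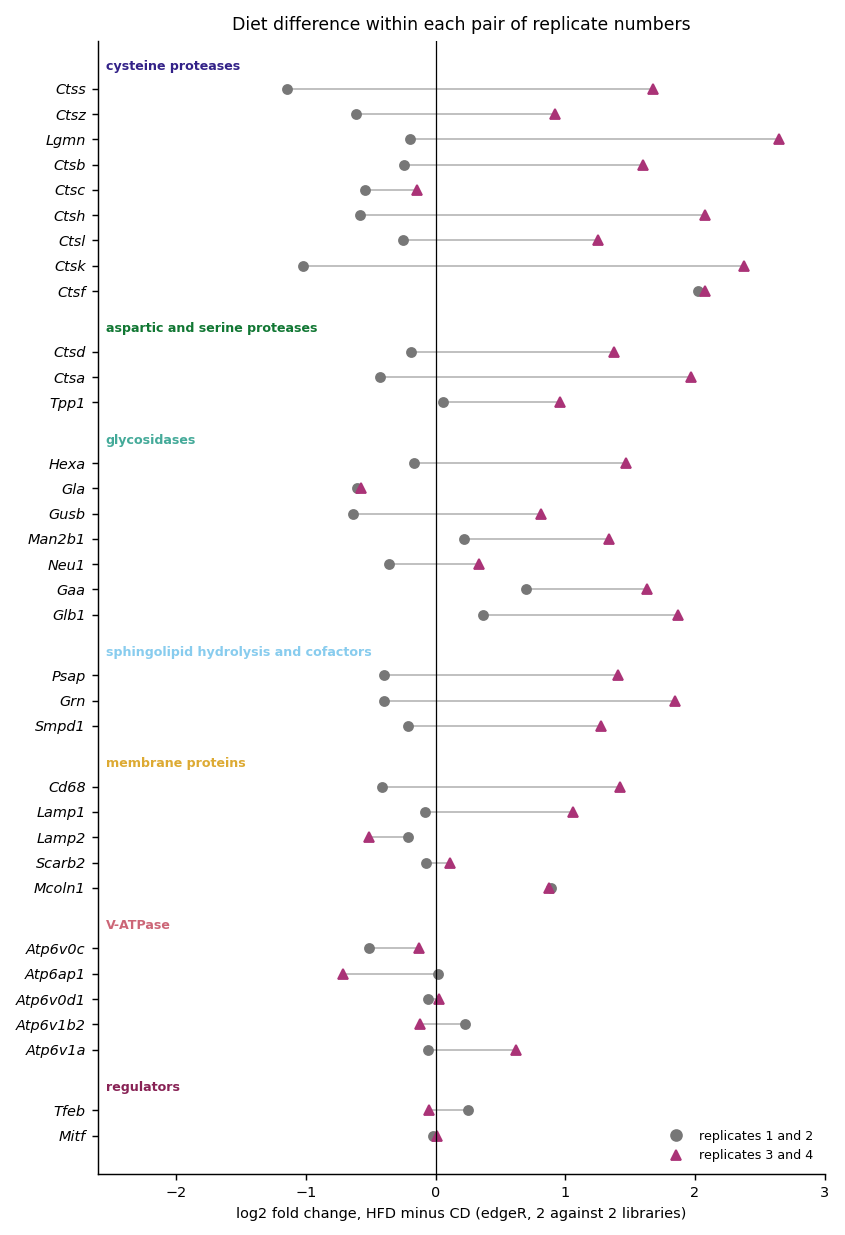
Log2 fold change, HFD minus CD, of each gene within replicates 1 and 2 (grey circles) and within replicates 3 and 4 (purple triangles), 2 against 2 libraries each, with TMM factors. For 21 of the 34 genes the circle lies left of 0 and the triangle right of it, and for Ctsf and Mcoln1 the symbols nearly coincide.

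The interaction of diet with the numbered side, which was likewise set up with the pattern known, was above 0 for all 22 hydrolases and cofactors with a median of 1.58. It passed for 2 of the 34 genes (2.35% of all genes) and was above 0 with an unadjusted p under 0.05 in 20 (11.3% of all genes). The 2 were Ctsh at 2.72 ± 0.50 (adjusted p = 0.0324 in edgeR) and Glb1 at 1.56 ± 0.32 (adjusted p = 0.0452 in edgeR). Ctsh was at 550.3 and 411.6 CPM in CD replicates 1 and 2 and at 289.2 and 349.4 CPM in HFD replicates 1 and 2. It was at 265.9 and 235.4 CPM in CD replicates 3 and 4 and at 765.8 and 1230 CPM in HFD replicates 3 and 4. Its HFD values in TMM-scaled CPM were thus lower on one side and higher on the other. As FPKM the diets overlapped in replicates 1 and 2, at 111.4 and 79.0 in HFD and 108.7 and 85.8 in CD. Both interaction calls were lost when CD replicate 1, 2, 3 or 4 or HFD replicate 3 or 4 was left out. The share of all genes called was then 0.217%, 0.0673%, 1.23%, 1.19%, 0.501% and 0.584% in that order. Without HFD replicate 1 or 2, 5 and 16 of the 34 were called, beside 3.65% and 9.25% of all genes. Other fits of the interaction called 1 with RLE factors (1.93%), 11 with DESeq2 (7.43%), 4 with limma on log2(FPKM + 1) (5.12%) and 13 without a filter (5.2%). The neutrophil markers, the number of genes with counts and the C1q genes divided CD replicates 3 and 4 from 1 and 2 in the same way. In HFD, neutrophil markers summed to 482.4 and 2245 CPM in replicates 1 and 2 and to 4325 and 7421 CPM in 3 and 4. The summed macrophage markers, most of which is Lyz2 and the C1q genes, were at 11230 and 41390 CPM in HFD replicates 1 and 2 and at 59690 and 101700 CPM in 3 and 4. Not every marker followed, with Adgre1 at 616.5, 197.6, 367.7 and 681.6 CPM in HFD replicates 1 to 4 and Cd14 highest of them in replicate 2, at 9467 CPM, and in the comparison of all 8 libraries 6 of the 11 were above 0. The part of these differences in the lysosomal result was not tested.

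Other lysosomal genes were counted in the same fit, from lists of 123 genes outside the 34, of which 114 were tested. Their log2 fold changes were above 0 in 77 of 114 with a median of 0.22. In edgeR 0 were called, with 11 higher and 5 lower at an unadjusted p under 0.05, and the share of all genes called was the same 0.00576% as above. DESeq2 called 5 of them, 3 higher and 2 lower, beside 3.68% of all genes. Other glycosidases, sulfatases and amidases were above 0 in 18 of 22, with a median of 0.33. The smallest p was that of Idua, alpha-L-iduronidase of glycosaminoglycan breakdown, at 3.73 ± 0.626 and 7.95 ± 1.21 CPM (log2 fold change 1.09 ± 0.25, adjusted p = 0.244 in edgeR). It kept a difference of 1.11 and 1.16 on the numbered sides. Siae, a sialate esterase, was at 5.61 ± 1.82 and 10.2 ± 2.52 CPM.

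Lipases, phosphatases, nucleases and thioesterases were above 0 in 11 of 13, with a median of 0.33. Acp5, the tartrate-resistant acid phosphatase, was at 87.7 ± 17.5 and 167 ± 66.65 CPM, Pla2g15, a lysosomal phospholipase, at 10.9 ± 4.41 and 18.7 ± 7.16 CPM, and Plbd1 at 119 ± 39.7 and 65.4 ± 22.5 CPM. Other proteases were split, 5 above and 3 below 0. Cpq, a carboxypeptidase, was at 11.6 ± 6.74 and 30.15 ± 6.67 CPM and Ctse, cathepsin E, at 0.9745 ± 0.287 and 2.35 ± 1.22 CPM, while Napsa, an aspartic protease, was at 132.5 ± 56.5 and 52.5 ± 18.35 CPM. Napsa was highest in CD replicates 3 and 4, at 185.3 and 176.1 CPM, the libraries with the most neutrophil transcripts.

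Among other membrane proteins, channels and transporters 20 of 30 were above 0, with a median of 0.21. In TMM-scaled CPM, every HFD library lay above every CD library in 2 of the 30 and below in 2. Over all tested genes the shares were 3.57% and 4.8%. Cd63, a tetraspanin of late endosomes, stood at 905.7, 821.1, 273.9 and 255.3 CPM in CD replicates 1 to 4 and at 1467, 2551, 1351 and 2032 CPM in HFD replicates 1 to 4, with no overlap (log2 fold change 1.71 ± 0.54, adjusted p = 0.274 in edgeR). Gpnmb, a glycoprotein of lipid-laden macrophages, was at 23.4 ± 9.66 and 53.6 ± 24.2 CPM. Slc15a3, a peptide and histidine transporter, was at 197 ± 93.6 and 85.6 ± 14.4 CPM. The other subunits of the proton pump were above 0 in 5 of 14, with a median of -0.05, beside -0.07 for the 5 pump genes above. The smallest p of these were those of Atp6v0a2 (9.5 ± 1.93 and 6.76 ± 1.59 CPM), Atp6v1e1 (209.5 ± 68.6 and 143 ± 23.2 CPM) and Atp6v1g1 (292 ± 20.2 and 370 ± 76.2 CPM), and 0 had an unadjusted p under 0.05.

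The genes that carry hydrolases to the lysosome were level, 3 of 6 above 0 with a median of -0.04. Among them Sort1 was at 2.798 ± 1.17 and 4.03 ± 1.74 CPM, the mannose 6-phosphate receptor gene Igf2r at 8.24 ± 1.88 and 6.46 ± 2.11 CPM and Nagpa, which uncovers the mannose 6-phosphate signal, at 18.2 ± 7.30 and 15.7 ± 2.91 CPM. Other MiT/TFE factors and nutrient-sensing genes of the lysosome were above 0 in 12 of 15, with a median of 0.22. Tfec, a relative of Tfeb, was at 7.33 ± 5.65 and 2.92 ± 0.856 CPM, and without CD replicates 3 and 4 its fold change was 0.18 instead of -1.32. Rragc, a Rag GTPase, was at 27.2 ± 1.33 and 36.8 ± 6.56 CPM, and Rptor, a part of mTORC1, at 8.205 ± 0.353 and 11.6 ± 3.34 CPM. Of 6 cathepsin inhibitors 3 were above 0. Serpinb6a was at 21.9 ± 9.49 and 55.95 ± 5.36 CPM (log2 fold change 1.35 ± 0.33, adjusted p = 0.244 in edgeR). Cstb, cystatin B, which inhibits cysteine cathepsins in the cytosol, was at 973 ± 106 and 495 ± 251 CPM, and Serpinb1a at 8.29 ± 3.85 and 4.24 ± 2.44 CPM.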

How the data were processed

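Per the labels' protocols, cDNA was primed with oligo(dT), copied at full length, amplified and fragmented, with no step that marks strand and no molecular identifiers. Tools named by the submitters' processing notes are StringTie 1.3.4d, HISAT2 2.0.4 and cutadapt 1.9, without settings or a genome build. The authors deposited 1 table of raw read counts and of FPKM per gene and library. Of its gene identifiers 42502 were in GENCODE release M21 (GRCm38), and 31 of the 34 genes had the same start and end there, and coordinates follow that build.

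The main test was edgeR's quasi-likelihood test (version 4.0.16 in R 4.3.3) on counts with TMM factors, filterByExpr and diet alone in the model, adjusted over all 17367 genes that passed, with a threshold of 0.05. Alternatives were DESeq2 1.42.0 and limma 3.58.1 on log2(FPKM + 1) and log2(FPKM + 0.1), other scalings, no filter, libraries left out (the filter on low counts was set anew for each design), a replicate block, and fits within replicate numbers. Scripts were tested on simulated data. The members, lists and alternatives were chosen with earlier results of these data known, so lists are described by counts and medians without a test. Values of all 8 libraries are given for genes whose diets do not overlap and, per class, for the gene of largest absolute log2 fold change and that of highest mean FPKM, both regulators, and, chosen after their values were seen, Ctsh and Cd63. Of each further list up to 3 genes of smallest p are named, and 1 that the rule names is not reported here.

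Same-number libraries of the diets deviated together from their group means (correlations across genes of 0.11, 0.29, 0.22 and 0.18), as did other numbers within 1 and 2 or within 3 and 4 (0.16 to 0.32), while numbers from opposite sides did not (-0.32 to -0.13). Deviations from a group mean cancel out within each diet, so the negative values follow from the positive ones and are no separate observation. No source used here says what the numbers mean. The labels describe separate mice. By position, Ctsb, Ctsl, Ctss, Ctsz, Ctsa, Glb1, Hexa, Lamp1, Scarb2, Atp6v1b2 and Mitf overlap other genes, all at lower levels. Without strand, reads from the shared bases cannot be told apart. Counts per gene give counting errors far below the spread between mice, except at low counts such as those of Ctsf.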

Additional observations from a re-analysis of the deposited data

Results flagged for a closer look

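Ctsf in CD replicate 4 was at 0.982 CPM and stood apart from the other 3 CD libraries, with a gap to the nearest of 0.832 of the range of the group. Ctsk in HFD replicate 4 was at 15.2 CPM and stood apart from the other 3 HFD libraries in the same way (0.868 of the range). Both exceed Dixon's 95% critical value for groups of 4. Of such groups 68 were checked, and chance flags about 1 in 20. With a division of libraries made with their pattern known, the diet difference of Ctsh was larger in replicates 3 and 4 than in 1 and 2 by 2.72 on the log2 scale (adjusted p = 0.0324 in edgeR). In TMM-scaled CPM its HFD values were lower on one side and higher on the other. The diet difference of Glb1 was larger by 1.56 (adjusted p = 0.0452 in edgeR), with HFD higher on both sides.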

How the results depend on the processing

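The count of lysosomal genes called, 0 of 34, was 1 with DESeq2, 1 with no filter on low counts (0.973% of all genes), 2 with the term for the numbered sides and 20 within replicates 3 and 4. It was 0 in the other settings, each left-out library included. The wider lists, 0 called, gave 5 with DESeq2 (3 higher, 2 lower, beside 3.68% of all genes), 5 with that term (all higher, 1.77%) and 48 within replicates 3 and 4 (40 higher, 8 lower, 28.0%). The interaction, 2 called, gave 1 with RLE factors (1.93% of all genes), 11 with DESeq2 (7.43%), 4 with limma on log2(FPKM + 1) (5.12%), 13 with no filter (5.2%) and 0 to 16 with 1 library left out. At an unadjusted p under 0.05, 922 genes were higher and 1313 lower with TMM, and 1083 and 618 with library size only. The cause of these shifts was not tested.

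Median log2 fold changes of all 34 genes were -0.21 and 1.16 within replicates 1 and 2 and within 3 and 4, those of cysteine proteases -0.55 and 1.67, of aspartic and serine proteases -0.19 and 1.37, of the sphingolipid group -0.40 and 1.405, of glycosidases -0.17 and 1.34 and of membrane proteins -0.086 and 0.87. With limma on log2(FPKM + 1) and log2(FPKM + 0.1) glycosidases were at 0.93 and 0.95, membrane proteins at 0.76 and 0.77 and the proton pump at 0.25 and 0.26. Regulators were at 0.28 with the latter. With library size only the pump was at 0.41 and the regulators at 0.47. Without CD replicates 3 and 4 glycosidases were at 0.19 and regulators at 0.25. With 1 library left out the medians ran from 0.24 to 0.65 for all 34 genes, 0.38 to 1.11 for cysteine proteases, 0.40 to 0.91 for aspartic and serine proteases, 0.37 to 0.82 for glycosidases, 0.33 to 0.78 for the sphingolipid group, 0.17 to 0.63 for membrane proteins, -0.10 to 0.08 for the pump and -0.05 to 0.14 for regulators.

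Signs of single genes turned as follows, on the log2 scale. Gusb was at -0.0156 with DESeq2 and -0.0154 with RLE factors. With library size only Neu1 was at 0.31, Scarb2 0.35, Atp6v0d1 0.41, Atp6v1b2 0.48 and Mitf 0.27. Without CD replicates 3 and 4 Ctsz was at -0.10, Gusb -0.36, Neu1 0.0516, Smpd1 -0.15, Lamp2 0.29, Scarb2 0.27, Atp6v0c 0.14, Atp6v0d1 0.0482, Atp6v1b2 0.24 and Mitf 0.38. With limma on log2(FPKM + 0.1) Neu1 was at 0.29, Scarb2 0.32, Atp6v0d1 0.26, Atp6v1b2 0.35 and Mitf 0.24, and on log2(FPKM + 1) at 0.27, 0.29, 0.25, 0.33 and 0.0919. With no filter they were at 0.10, 0.11, 0.0521, 0.11 and 0.0772. With the term for the numbered sides Scarb2 was at 0.00581 and Atp6v1b2 at 0.0387. Within replicates 1 and 2 Ctsb was at -0.25, Ctsh -0.59, Ctsk -1.02, Ctsl -0.25, Ctss -1.15, Ctsz -0.61, Lgmn -0.20, Ctsd -0.19, Ctsa -0.43, Gusb -0.63, Hexa -0.17, Smpd1 -0.22, Psap -0.40, Grn -0.40, Lamp1 -0.086, Cd68 -0.41, Atp6v1a -0.0599, Atp6v1b2 0.22 and Atp6ap1 0.0162. Within 3 and 4 Neu1 was at 0.33, Scarb2 0.11, Atp6v0d1 0.0236, Tfeb -0.049 and Mitf 0.0137. With 1 library left out Ctsk ran from -0.30 to 1.47, Ctsz -0.15 to 0.35, Gusb -0.12 to 0.23, Neu1 -0.12 to 0.13, Scarb2 -0.0944 to 0.13, Atp6v0c -0.63 to 0.0548, Atp6v0d1 -0.13 to 0.11, Atp6v1b2 -0.0549 to 0.0875, Tfeb -0.29 to 0.30 and Mitf -0.21 to 0.30.

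With the replicate block, in which same-numbered libraries are paired, 0 of 34 genes were called (0.0306% of all genes), and Neu1 was at 0.0163, Scarb2 at 0.0463, Atp6v1b2 at 0.0744 and Mitf at 0.00899. The block changed no call of a lysosomal gene. Depth limits Ctsf, with 16 to 29 counts per CD library.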

Other observations

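Ratios between lysosomal genes of 1 library do not depend on scaling between libraries. The pairs were chosen after their values were seen and carry no test. Ctsb over Cstb, a protease over its cytosolic inhibitor, was 4.0, 4.23, 3.39 and 2.94 in CD replicates 1 to 4 and 15.3, 5.22, 18.6 and 16.2 in HFD replicates 1 to 4. Ctsl over Cstb was 0.235, 0.232, 0.307 and 0.325 in CD and 0.535, 0.372, 1.78 and 1.05 in HFD. Neither ratio overlapped between the diets, although Ctsl and, in TMM-scaled CPM, Ctsb did. Both share Cstb, which in TMM-scaled CPM did not overlap either, at 819.6 to 1044 CPM in CD and 162.1 to 717.7 CPM in HFD. Unlike the ratios, the separation of Cstb depends on the scaling between libraries. Ctss over Cst3, which encodes the secreted inhibitor cystatin C, was 2.19, 1.95, 6.78 and 5.74 in CD and 1.12, 2.06, 5.67 and 4.4 in HFD. That ratio was higher in replicates 3 and 4 than in 1 and 2 of both diets. Ctsd over Atp6ap1, a hydrolase over a pump subunit, was 9.23, 12.7, 7.26 and 7.6 in CD and 13.6, 7.39, 33.7 and 30.1 in HFD, with overlap.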
